A study of Homo sapiens with 6 samples.

Results

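The MAGE genes listed for this account are 10 members of the melanoma antigen family on the human X chromosome: MAGEA1, MAGEA3, MAGEA4, MAGEA6, MAGEA10, MAGEA12, MAGEB2, MAGEC2, MAGED1 and MAGED2. They were picked by symbol with their values in the comparison described here already known, so those values are a description and carry no test. All 10 symbols were found among the 64253 genes of the deposited tables, and 7 of the 10 were among the 16439 genes with enough reads to enter the fit. PC-3 is an established line of human prostate cancer. The study sequenced RNA of 3 samples in which an shRNA against CdGAP was expressed in PC-3 (shCdGAP) and of 3 samples with a control shRNA in the same line (shCon). CdGAP is a GTPase-activating protein encoded by ARHGAP31. Per the study's methods the hairpins were delivered by lentivirus, and depleted cells were grown out as clones of single cells. Whether the control cells were cloned too is not given, so an effect of the depletion and a difference between 1 clone and the control cells cannot be told apart.

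MAGE proteins share a conserved MAGE homology domain, with which many of them bind RING-type E3 ubiquitin ligases. The MAGEA, MAGEB and MAGEC genes (type I) are cancer-testis antigens: they are normally silent outside germ cells, in large part through DNA methylation of their promoters, and are active in many tumours, where peptides of their proteins can be shown to T cells. The MAGED genes (type II) are expressed in many normal tissues and are not cancer-testis antigens, so that name fits 8 of the 10 listed genes.

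Several MAGEA genes are near copies of each other, and a read that matches 2 places equally well is not counted under the settings in the file headers. To see what this hides, the exons of each gene were split into all overlapping windows of 50 bases, and the share of windows found once in the GRCh38 chromosomes was taken. The share was 100% for MAGEA1, 95.2% for MAGEA10, 96.8% for MAGED1 and 98.2% for MAGED2. It was 84.8% for MAGEA12, which shared 10.5% of its windows with MAGEA2. It fell to 43.1% for MAGEA3 and 39.9% for MAGEA6, since 55.2% of the MAGEA3 windows also occur in MAGEA6. With windows of 100 bases the last 2 shares were 62.0% and 61.8%. Counts of MAGEA3 and MAGEA6 therefore come from reads or read pairs that reach a part of the sequence in which the genes differ. How much is lost depends on read length, and how their RNA splits between these genes is uncertain. MAGEA2, MAGEA2B, MAGED4 and MAGED4B had no unique window, and their reads over 6 libraries, 0, 3, 0 and 0, do not measure their RNA level.

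**Figure D1:**
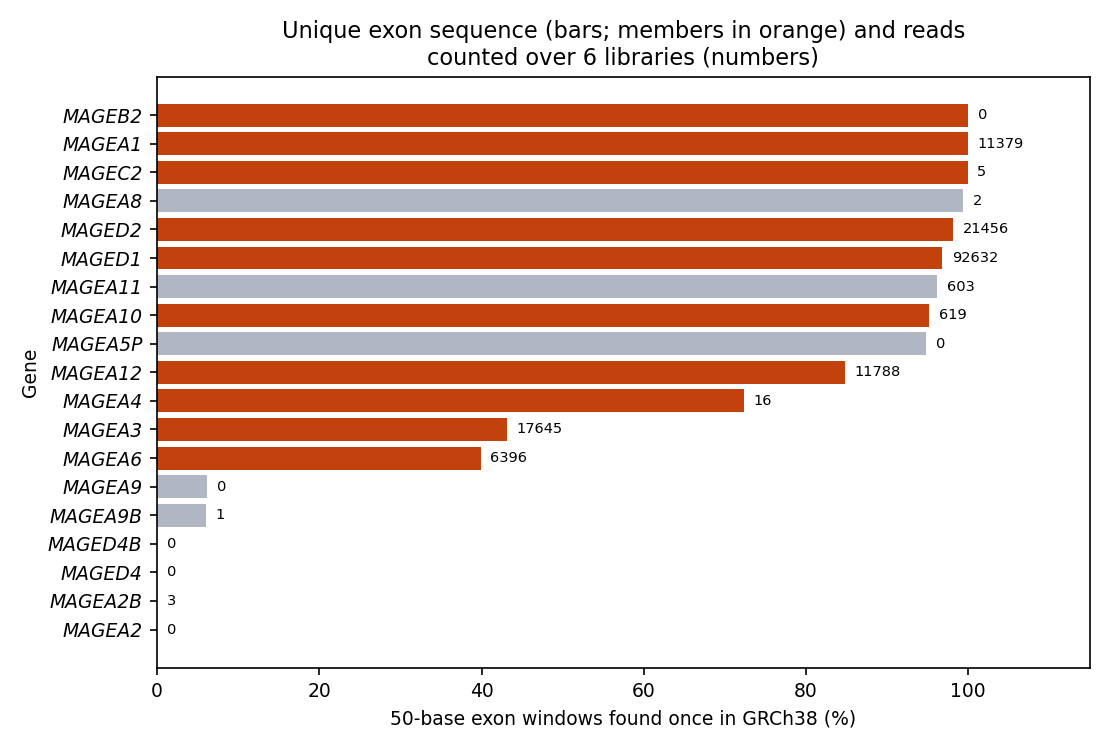
Bars give the percent of 50-base exon windows of each MAGEA and MAGED gene, MAGEB2 and MAGEC2 that occur once in GRCh38, with the 10 listed genes in orange, and the number beside each bar is the reads counted over the 6 libraries. MAGEA1, at 100%, gathered 11379 reads, MAGEA3 gathered 17645 reads at 43.1%, and MAGEB2 had 0 reads although its sequence is unique.

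The pair MAGEA3 and MAGEA6 shows how close these copies are. The gene bodies are 3596 and 3612 bases long and differ by 43 edits, which makes them 98.8% identical. They lie on opposite strands, and from the RefSeq start the sequence upstream is identical for 535 bases before the first difference. The 250 bases upstream of the starts that RefSeq gives (GRCh38.p14) are shown for the MAGEA genes whose counts are set against each other here. MAGEA3 is on the + strand at chrX:152698544-152698793, and the same letters lie upstream of MAGEA6 on the - strand at chrX:152769690-152769939. MAGEA12 is on the + strand at chrX:152733507-152733756, MAGEA4 on the + strand at chrX:151912224-151912473, and MAGEA11, the closest related gene outside the list with many reads, on the + strand at chrX:149711810-149712059. Capitals mark CCGGAA, a core that ETS-family factors bind, and GGATGTGA, 8 letters that were picked out after these sequences had been read.
MAGEA3 and MAGEA6: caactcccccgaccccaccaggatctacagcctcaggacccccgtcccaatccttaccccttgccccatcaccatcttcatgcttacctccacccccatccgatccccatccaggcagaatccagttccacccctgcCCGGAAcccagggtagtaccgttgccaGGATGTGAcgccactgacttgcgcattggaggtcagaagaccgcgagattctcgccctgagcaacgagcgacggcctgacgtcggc
MAGEA12: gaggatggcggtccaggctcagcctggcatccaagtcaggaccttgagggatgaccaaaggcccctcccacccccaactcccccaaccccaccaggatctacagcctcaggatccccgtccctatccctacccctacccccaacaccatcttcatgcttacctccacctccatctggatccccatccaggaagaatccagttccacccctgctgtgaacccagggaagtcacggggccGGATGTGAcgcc
MAGEA4: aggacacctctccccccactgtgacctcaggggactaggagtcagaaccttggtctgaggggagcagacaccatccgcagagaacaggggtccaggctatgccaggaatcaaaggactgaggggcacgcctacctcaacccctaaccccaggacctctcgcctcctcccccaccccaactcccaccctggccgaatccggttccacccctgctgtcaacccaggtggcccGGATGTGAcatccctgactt
MAGEA11: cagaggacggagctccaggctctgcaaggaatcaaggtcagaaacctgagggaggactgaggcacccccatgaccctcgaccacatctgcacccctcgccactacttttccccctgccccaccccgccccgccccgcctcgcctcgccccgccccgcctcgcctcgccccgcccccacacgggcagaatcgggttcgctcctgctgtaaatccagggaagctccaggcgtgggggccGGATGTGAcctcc

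The 8 letters GGATGTGA, searched on both strands, were in the upstream 250 bases of all 10 MAGEA genes that have an entry, against 0.965% of the 35116 promoter entries. Of 23 other MAGE genes with an entry, 2 held them, and MAGEB2 is one of those. The letters were picked after these promoters were read, and some of the MAGEA genes are near copies. Any entry of a gene was enough for it to count, whereas the share over all is per entry. So no enrichment is read from these counts. CCGGAA occurred once each in MAGEA3 and MAGEA6 and in no other listed gene, against 14.5% of all promoter entries. CACGTG, the letters of an E-box, was in none of the listed genes' windows and in 6.34% of all. GGGCGG, an Sp1-type GC box, was in 42.6% of all windows and in at least 1 window of MAGEA4, MAGEC2, MAGED1 and MAGED2. TCCCGC, an E2F-type core, was in 23.5% of all windows and in 1 window each of MAGED1 and MAGED2. The number of CG pairs, the letters at which DNA methylation is laid down, was 15 in MAGEA3 and MAGEA6 and also in MAGEB2, and 5 and 13 in the 2 entries of MAGEA12. The middle of all entries was 11, with quartiles at 3 and 23. These letters were found in a fixed window and say nothing about binding or methylation in these cells. MAGEA1 and MAGEA10 had no entry.

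The depth of the 6 libraries was similar, with 34011175 to 43154039 counted reads in shCdGAP and 33182796 to 42786971 in shCon. The targeted gene, ARHGAP31 (chromosome 3 from 119294373 to 119420714), was read 1072, 1181 and 926 times in shCdGAP replicates 1, 2 and 3 against 2472, 2557 and 1923 times in shCon. That was a log2 fold change of -1.14 (SE 0.041; edgeR adjusted p = 8.75e-08). The epithelial keratins KRT8 and KRT18 were abundant in every library, and KLK3, listed here as absent or low in PC-3, had no read. shCdGAP replicate 2 stood apart from the other libraries of its group: the chi-square per degree of freedom against replicates 1 and 3 was 26.3 and 32.1, where replicates 1 and 3 gave 3.14 and the shCon pairs 2.5 to 6.60. For the listed genes that could be fitted, ranges over fits that each left out 1 library, this one among them, are given below.

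MAGEA1, the first human tumour antigen found to be recognised by T cells (ENSG00000198681, X from 153179285 to 153183880, + strand), was the gene with the largest excess in CdGAP-depleted cells among the members tested. It had 3697, 3575 and 3055 reads in shCdGAP replicates 1, 2 and 3, and 378, 369 and 305 in shCon replicates 1, 2 and 3. The lowest shCdGAP library lay far above the highest shCon library. Scaled to library size (CPM, with TMM factors), these were 87.4 ± 4.73 (SD, n = 3) and 8.99 ± 0.245 (SD, n = 3), a 9.72-fold difference or a log2 fold change of 3.28 (SE 0.06). The value without any 1 library lay between 3.24 and 3.32. Every 50-base window of MAGEA1 is unique, so its count does not depend on how near copies are treated.

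MAGEA10, a further type I antigen (ENSG00000124260, X from 152133310 to 152138578, - strand), went the other way. It had 6, 8 and 8 reads in shCdGAP and 208, 212 and 177 in shCon. The control cells thus held it at 5.11 ± 0.214 CPM (SD, n = 3) and the depleted cells at 0.188 ± 0.0425 CPM (SD, n = 3), which is 27.0-fold lower by the fitted value (log2 fold change -4.76, SE 0.18). Without shCdGAP replicate 1, 2 or 3 the value was -4.62, -4.76 or -4.92, and raising the prior count of the fit to 5 made it -4.06. MAGEA10 passed the filter on low counts only through the shCon libraries. A readthrough gene, ENSG00000266560, covers 16.2% of its exon length on the same strand, and it had 2 reads in all. These are bulk samples, in which fewer cells with a transcript and less of it per cell cannot be told apart.

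MAGEA3 and MAGEA6 encode proteins that bind the E3 ligase TRIM28 and are best known for turning it on the energy sensor AMPK. MAGEA3 (ENSG00000221867, X from 152698752 to 152702347, + strand) had 3460, 3449 and 2799 reads in shCdGAP and 2815, 2981 and 2141 in shCon. Because the libraries differ in depth, the read counts of the groups overlap, but the CPM of the groups do not, at 79.2 to 85.3 against 64.8 to 70.6. The difference was small, with a log2 fold change of 0.28 (SE 0.05).

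MAGEA6 (ENSG00000197172, X from 152766136 to 152769747, - strand) had 1521, 1708 and 1299 reads in shCdGAP and 692, 649 and 527 in shCon. In CPM this was 38.2 ± 0.912 in shCdGAP and 15.9 ± 0.559 in shCon (SD, n = 3 each), or 2.39-fold more (log2 fold change 1.26, SE 0.05). The 2 near-identical genes thus showed different folds. The ratio of MAGEA3 to MAGEA6 reads was 2.27, 2.02 and 2.15 in shCdGAP and 4.07, 4.59 and 4.06 in shCon, with no overlap. With their reads summed as 1 gene the log2 fold change was 0.53, between those of the single genes. What the reads that match both genes would add is not known from these counts.

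MAGEA12, another T-cell antigen of the type I group (ENSG00000213401, X from 152733779 to 152737669, + strand), had 2442, 2657 and 1907 reads in shCdGAP and 1697, 1743 and 1342 in shCon. The levels were 58.9 ± 2.99 and 40.8 ± 0.449 CPM (SD, n = 3 each), and the groups did not overlap on this scale. The log2 fold change was 0.53 (SE 0.05). CSAG4, which overlaps 1.70% of its exon length, had far fewer reads (12 to 45 per library).

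MAGEA4, MAGEB2 and MAGEC2 were near or below what these libraries can show. MAGEA4, the antigen of an engineered T-cell therapy (ENSG00000147381, X from 151912509 to 151925170, + strand), had 5, 8 and 3 reads in shCdGAP and 0, 0 and 0 in shCon. Against a floor of 3 reads per shCon library this was at least 1.69-fold higher. MAGEB2, which binds the stress granule protein G3BP1 (ENSG00000099399, X from 30215560 to 30220089), had 0 reads in all 6 libraries, which allows up to 3 reads per library, or about 0.0778 CPM over the shCon and 0.0767 over the shCdGAP libraries. MAGEC2, a strong binder of TRIM28 (ENSG00000046774, X from 142202345 to 142205290, - strand), had 0, 0 and 1 reads in shCdGAP and 0, 2 and 2 in shCon, and no fold is given. These 3 genes did not pass the filter on low counts.

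MAGED1, which binds the neurotrophin receptor NGFR (ENSG00000179222, X from 51803007 to 51902357, + strand), had 18566, 19798 and 15714 reads in shCdGAP and 13902, 13944 and 10708 in shCon. Its levels were 457 ± 1.77 and 329 ± 3.95 CPM (SD, n = 3 each), with a log2 fold change of 0.47 (SE 0.03). It was thus the most abundant member in both groups on the CPM scale, and NGFR itself had 0 or 1 read per library.

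MAGED2, which acts with the G protein GNAS in renal salt uptake (ENSG00000102316, X from 54807599 to 54816012, + strand), had 4709, 4944 and 3893 reads in shCdGAP and 2846, 2894 and 2170 in shCon. Its levels were 114 ± 1.59 and 67.4 ± 1.5 CPM (SD, n = 3 each), and the log2 fold change was 0.76 (SE 0.04). Both MAGED genes were higher in every shCdGAP library than in any shCon library. The ratio of MAGED1 to MAGED2 in reads per kilobase of exon, scaled to library size (RPKM), was 1.93, 1.96 and 1.97 in shCdGAP and 2.39, 2.35 and 2.41 in shCon.

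**Figure D2:**
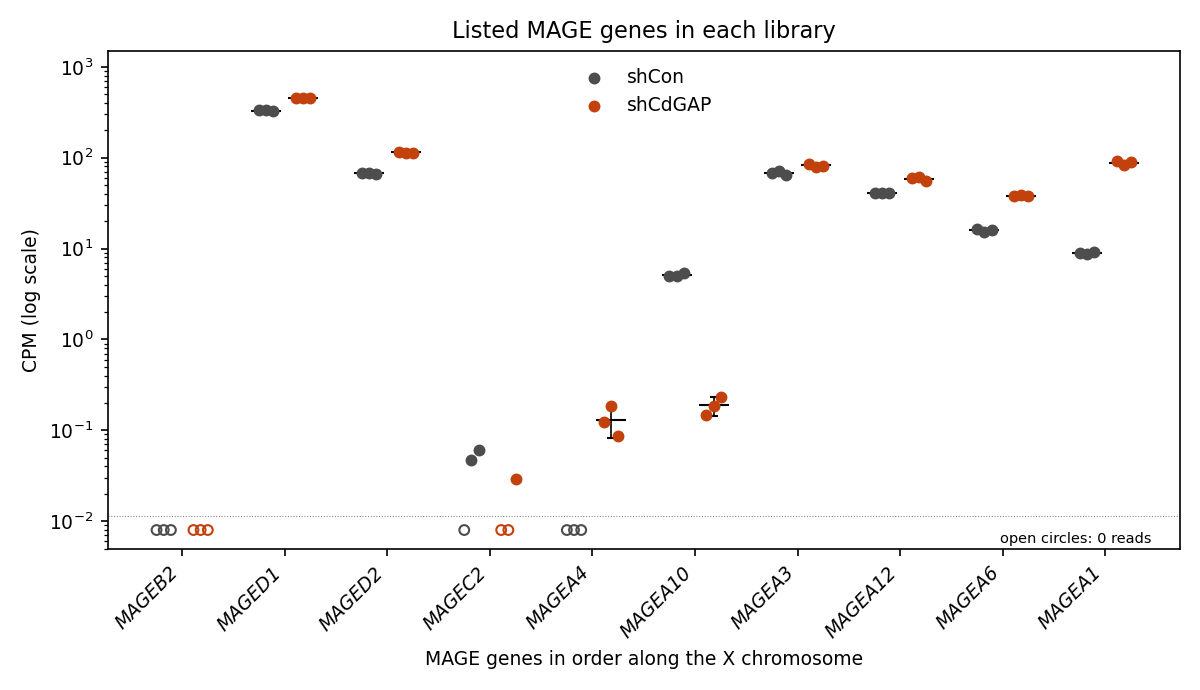
Each point is the level of 1 listed gene in 1 library, in CPM on a log scale, with genes in their order along the X chromosome, shCon in grey and shCdGAP in orange, and black bars at the mean ± SD of 3 libraries where all 3 have reads. Open circles on the floor stand for 0 reads. MAGEA1 sits at 82.1 to 91.2 CPM in shCdGAP against 8.74 to 9.23 in shCon, and MAGEA10 is the only member with the 3 shCon points above the 3 shCdGAP points.

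Side by side, 6 of the 7 members that could be fitted were higher in shCdGAP and 1, MAGEA10, was lower, and the median of their log2 fold changes was 0.53, against 0.01 over all 16439 genes. In CPM none of the 7 overlapped between groups, where 67.1% of all tested genes did not (34.4% with shCdGAP higher and 32.7% with it lower). Past an adjusted p of 0.01 and an absolute log2 fold change above 1 were 3 of the 7, with MAGEA1 and MAGEA6 higher and MAGEA10 lower, beside 12.8% of all tested genes (8.56% higher and 4.19% lower). The members were chosen on this contrast, so nothing is read from these counts. Leaving out shCdGAP replicate 2 or any other library kept the direction of all 7. The log2 fold changes then ranged from 0.24 to 0.30 for MAGEA3, 1.22 to 1.27 for MAGEA6, 0.50 to 0.56 for MAGEA12, 0.45 to 0.47 for MAGED1 and 0.73 to 0.76 for MAGED2.

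The make-up of the MAGEA reads differed between the groups as well as their sum. The 6 MAGEA members together had 11131, 11405 and 9071 reads in shCdGAP and 5790, 5954 and 4492 in shCon, or 275, 262 and 264 CPM against 138, 141 and 136 CPM. MAGEA1 took 32.7 ± 1.23% of these reads in depleted cells (SD, n = 3) and 6.51 ± 0.297% in control cells (SD, n = 3). MAGEA3 took 30.7 ± 0.436% and 48.8 ± 1.21% (SD, n = 3 each). MAGEA1 thus moved from the fourth place in the control cells to a share near that of MAGEA3. The share of MAGEA12 was 22.1 ± 1.14% against 29.5 ± 0.337%, that of MAGEA6 14.3 ± 0.656% against 11.5 ± 0.555%, and that of MAGEA10 0.0707 ± 0.0172% against 3.70 ± 0.211% (SD, n = 3 each). Shares of 1 total move together, and reads lost to near copies are missing from them.

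**Figure D3:**
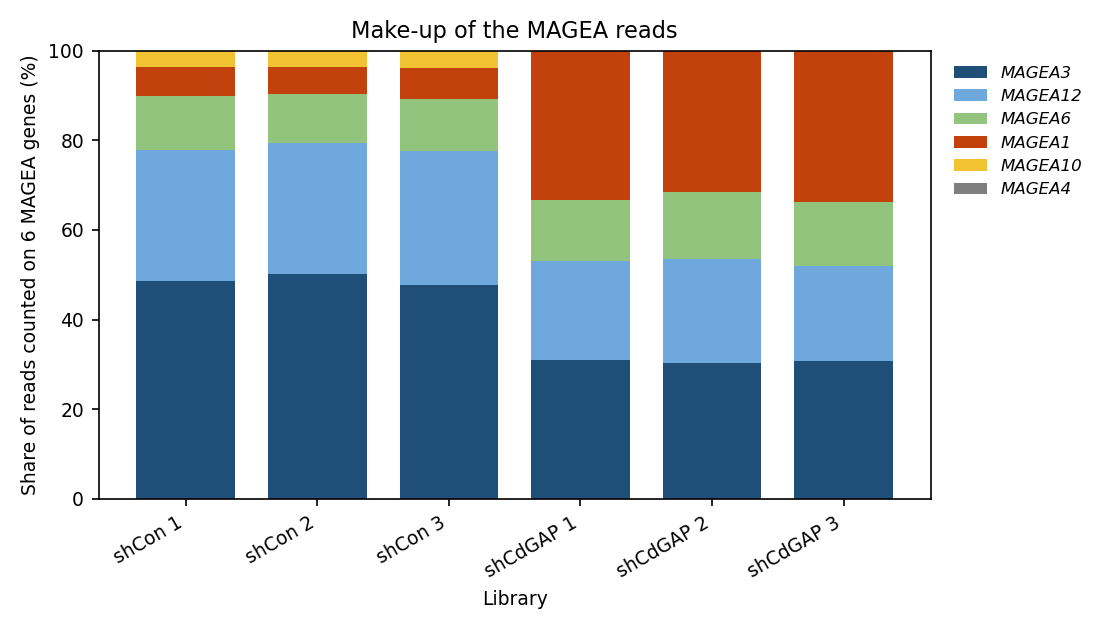
Each bar is 1 library, split by the percent of the reads on the 6 listed MAGEA genes that each gene took. The MAGEA1 block grows from 6.51% in the shCon libraries to 32.7% in the shCdGAP libraries, the MAGEA10 block of 3.70% in shCon is too thin to see in shCdGAP, and MAGEA4 is too small to see in any bar.

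Levels of different genes can be compared only per length. Per kilobase of exon, the order in control cells was MAGED1 (54.6 ± 0.656 RPKM), MAGEA3 (37.8 ± 1.64), MAGED2 (22.9 ± 0.511), MAGEA12 (21.0 ± 0.231), MAGEA6 (8.56 ± 0.300), MAGEA1 (5.26 ± 0.143) and MAGEA10 (1.76 ± 0.0739, SD, n = 3 for each). No neighbours in this order overlapped in their libraries. In depleted cells it was MAGED1 (75.9 ± 0.294 RPKM), MAGEA1 (51.1 ± 2.77), MAGEA3 (45.9 ± 1.74), MAGED2 (38.9 ± 0.542), MAGEA12 (30.3 ± 1.54), MAGEA6 (20.5 ± 0.490) and MAGEA10 (0.0649 ± 0.0147, SD, n = 3 for each). Again neighbours did not overlap in their ranges, though MAGEA1 came down to 48.0 and MAGEA3 up to 47.7 RPKM.

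This order rests on what length is used. With CPM per 1000 unique 50-base windows, a scale chosen after seeing the data, MAGEA3 led in both groups, at 116 ± 4.40 in shCdGAP and 95.5 ± 4.15 in shCon (SD, n = 3 each). MAGED1 followed at 85.0 ± 0.330 and 61.2 ± 0.735. MAGEA6 then stood at 57.4 ± 1.37 in shCdGAP, beside MAGEA1 at 55.9 ± 3.03, whose libraries, at 52.5 to 58.3, overlapped in part with those of MAGEA6 at 56.4 to 59.0. In shCon, MAGEA6 at 24 ± 0.840 was above MAGEA1 at 5.75 ± 0.156. The scale also hangs on the window length. With 100 in place of 50 bases, MAGEA3 had 937 unique windows in place of 707, and MAGEA6 934 in place of 665. MAGED1 had 5113 in place of 5369 and MAGEA1 1457 in place of 1563. The places of MAGEA3 beside MAGED1 and of MAGEA6 beside MAGEA1 in shCdGAP therefore hold for 50-base windows only. Folds between the groups are the same on either scale, since the length of a gene does not differ between libraries.

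The members lie on the X chromosome in groups, MAGEB2 on the short arm with MAGED1 and MAGED2 nearer the centromere, and MAGEC2 and the MAGEA genes on the long arm. By its lowest-numbered base MAGEA10 lies at -565 kb from MAGEA3, and MAGEA12, MAGEA6 and MAGEA1 lie 35.0, 67.4 and 481 kb beyond it. To see the members in their surroundings, the 5 nearest tested genes outside the family on each side of each member were taken, 57 genes in all. Of these, 12 were called higher and 1 lower (22.8%, beside 12.8% of all tested genes), and the median of their log2 fold changes was 0.01. No limit was set on distance, and of the called genes IDS lay 7275 kb from MAGEC2 and TMEM47 4411.5 kb from MAGEB2. Over the 554 tested X-linked genes outside the family, 54 were called higher and 16 lower (12.6%), with a median of 0.03. GABRQ, XAGE2 and BGN passed the filter on low counts only through shCdGAP, and TMEM47 only through shCon, where each is high. With at least 10 reads required in every library, the 13 called neighbours became 9 and the 70 called X-linked genes became 41.

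Close to the members, called genes stood next to genes that were not called. GABRA3, a GABA-A receptor subunit whose lowest-numbered base is 32.9 kb beyond that of MAGEA10, had 352, 416 and 276 reads in shCdGAP and 118, 119 and 81 in shCon (log2 fold change 1.70, SE 0.11, edgeR adjusted p = 2.48e-06), in the direction opposite to MAGEA10. GABRQ, another such subunit, at -60.6 kb from MAGEA3, had 66, 102 and 42 reads in shCdGAP and none in shCon, at least 22.2-fold higher against 3 reads per library. CSAG1, itself a cancer-testis gene that lies head to head with MAGEA12, had 1271, 1441 and 1114 reads in shCdGAP and 567, 577 and 451 in shCon (log2 fold change 1.25, SE 0.05, edgeR adjusted p = 1.49e-07). Its log2 fold change was thus larger than the 0.53 of MAGEA12, whose reads start on the other strand beside it. Between MAGEA6 and MAGEA1 lie 3 tested genes, described here after their values were seen. CETN2 and NSDHL had log2 fold changes of -0.19 and -0.07 and were not called, and ZNF185 was called higher at 1.08 (SE 0.04, edgeR adjusted p = 1.15e-07).

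**Figure D4:**
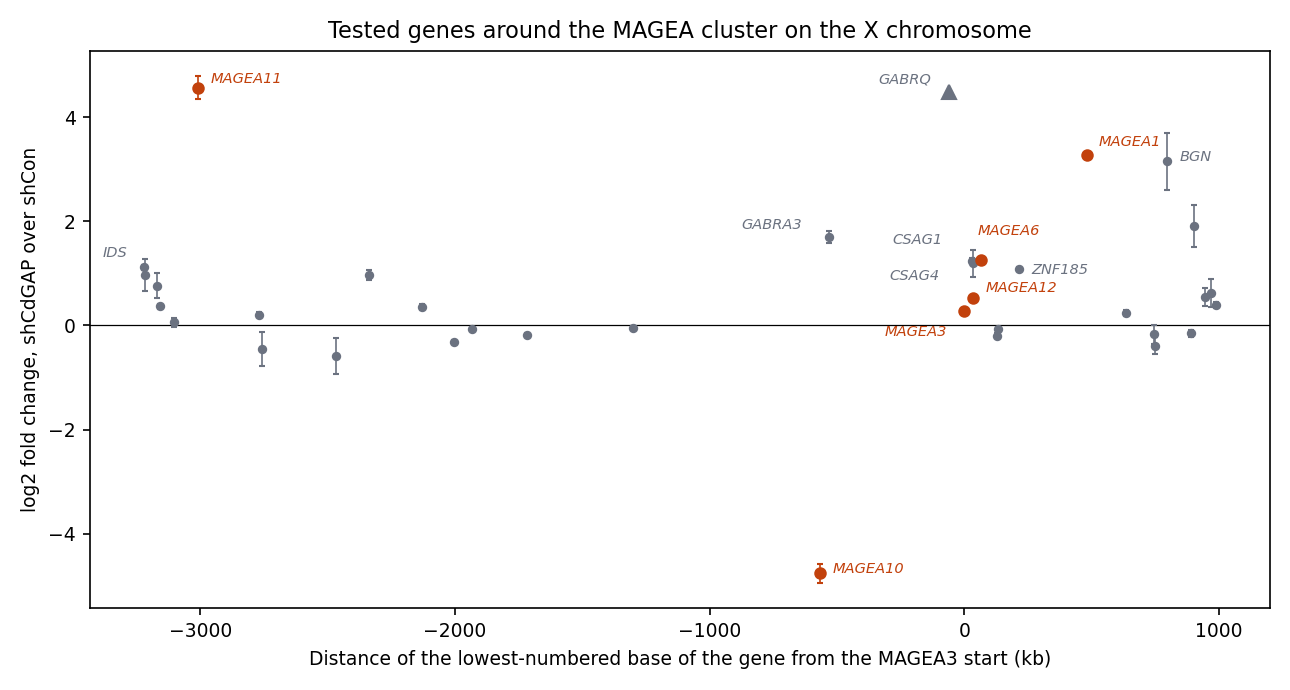
Each point is a tested gene, placed by the distance in kb of its lowest-numbered base from the start of MAGEA3 and by its log2 fold change of shCdGAP over shCon, with bars of 1 standard error, MAGE genes in orange and others in grey. The triangle for GABRQ is a lower bound, since the shCon libraries had no read of it. MAGEA10 lies at -4.76, between genes near 0 and GABRA3 at 1.70, while MAGEA1 and MAGEA11 lie at 3.28 and 4.57.

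Further away, TMEM47, a membrane protein gene on the short arm, was the 1 neighbour called lower, with 2, 1 and 0 reads in shCdGAP and 172, 163 and 127 in shCon. That is a ratio of shCon to shCdGAP of 156 (95% counting interval 52.9 to 758). XAGE2, a cancer-testis gene near MAGED1, had 106, 171 and 105 reads in shCdGAP and 1, 0 and 0 in shCon, a ratio of 378 (95% counting interval 67.4 to 14965). Also among the 6 neighbours of largest fold were BGN, a matrix proteoglycan gene (17, 21 and 10 reads against 3, 2 and 0), and GPR173, an orphan receptor gene (log2 fold change 1.76, SE 0.13). The intervals cover counting error only. With so few reads in 1 group, single libraries set the size of these folds. The fitted log2 fold change of TMEM47, -7.11, was -7.95 without shCdGAP replicate 1, that of XAGE2, 8.10, was 9.95 without shCon replicate 1, which left no XAGE2 read in shCon, and that of BGN, 3.15, was 3.76 without shCon replicate 1.

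Of 28 other MAGE genes found, 14 had no read in any library and 7 were tested. Of these 7, 2 were called higher and none lower at the same thresholds, beside 8.56% higher and 4.19% lower among all tested genes, and the median of their log2 fold changes was 0.57. MAGEA11, a type I gene (X from 149688228 to 149717266), had 197, 187 and 195 reads in shCdGAP and 6, 10 and 8 in shCon. Its levels were 4.94 ± 0.694 and 0.207 ± 0.0558 CPM (SD, n = 3 each), with a log2 fold change of 4.57 (SE 0.22, edgeR adjusted p = 4.34e-07). It passed the filter through the shCdGAP libraries, and with at least 10 reads required in every library it was not tested, which left 1 call. MAGEH1, a small type II gene (X from 55452105 to 55453566), had 185, 189 and 156 reads in shCdGAP and 65, 87 and 56 in shCon (log2 fold change 1.34, SE 0.13, edgeR adjusted p = 3.62e-05).

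The other 5 were not called. MAGEE1, a brain-enriched member, had 447, 460 and 391 reads in shCdGAP and 633, 656 and 454 in shCon. Its log2 fold change of -0.43 (SE 0.07, edgeR adjusted p = 0.000806) was past the p threshold and under the fold limit. NDN, encoding the imprinted growth suppressor necdin, stood at 0.81 (edgeR adjusted p = 0.0173), MAGEF1, a partner of the ligase NSMCE1, at 0.18 (edgeR adjusted p = 0.0235) and MAGEB17 at 0.57 (edgeR adjusted p = 0.0859). NSMCE3, a subunit of the SMC5/6 complex, was at -0.05 (edgeR adjusted p = 0.446). Of the type I genes that could be fitted, listed or not, MAGEA10 was the only one with a negative value.

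Outside MAGE, 67 of 76 listed X-linked cancer-testis symbols were found, 51 of them had no read, and 4 were tested. Of the 4, 3 were called higher and none lower, beside 8.56% called higher among all tested genes: CSAG1, XAGE2 and CTAG2, an antigen of the NY-ESO-1 family. XAGE2 passed the filter on low counts only through the shCdGAP libraries, where it is high, and with at least 10 reads required in every library 2 genes of this list were called. CTAG2 had 49, 85 and 39 reads in shCdGAP and 35, 22 and 23 in shCon, with a log2 fold change of 1.08 (SE 0.28, edgeR adjusted p = 0.00875). That call did not hold without shCdGAP replicate 1 (edgeR adjusted p = 0.0146), without shCon replicate 1, 2 or 3 (0.0155, 0.0433 and 0.0312 by edgeR), or without shCdGAP replicate 2, where the log2 fold change was 0.77. PAGE1, the fourth, stood at -0.73 (edgeR adjusted p = 0.0696), with 10, 8 and 8 reads in shCdGAP and 16, 18 and 9 in shCon. PAGE1 passed the filter on low counts only through the shCon libraries, where it is high. Below the filter, CSAG3 had 13, 13 and 6 reads in shCdGAP and none in shCon, at least 3.40-fold higher against the floor, though 9.19% of its windows are unique. SSX1 had 5, 17 and 5 reads against 1, 0 and 0, a ratio of 26.7 (95% counting interval 4.40 to 1094). No listed gene of the CT45, CT47 or SPANX families had a read, and neither did SAGE1 or CT83. Of the CT47 family only CT47A1 and CT47B1 were listed. At least 1 listed gene of the CTAG, GAGE, PAGE, XAGE, SSX and CSAG families had a read. Many of the genes with no read are close copies of each other, whose shared reads are not counted, so that 0 does not measure their RNA level.

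Genes for the machinery that keeps cancer-testis genes silent, and for factors that can bind their promoters, mostly stayed under the fold limit. The list also held TET1, TET2 and TET3, whose enzymes act against DNA methylation. Its counts thus mix opposing functions and do not measure silencing. Of 46 found, 44 were tested and 1 was called (2.27%, beside 12.8% of all tested genes), and the median of the 44 log2 fold changes was -0.23. An adjusted p under 0.01 at any size was reached by 30 of the 44, beside 46.2% of all tested genes. Values were lower in shCdGAP for 35 of the 44, beside 8067 of all 16439 tested genes. DNMT3B, a methyltransferase that sets new methylation, was the 1 call, at 19.2 ± 1.41 CPM in shCdGAP and 8.78 ± 0.370 in shCon (SD, n = 3 each; log2 fold change 1.13, SE 0.08, edgeR adjusted p = 3.09e-06). DNMT1, which maintains methylation through replication, had 14981, 12323 and 12725 reads in shCdGAP and 15671, 15180 and 11747 in shCon. Its log2 fold change of -0.09 (edgeR adjusted p = 0.466) became 0.018 without shCdGAP replicate 2. UHRF1, which guides DNMT1 to newly copied DNA, was at 79.3 ± 11.2 CPM in shCdGAP and 152 ± 2.06 in shCon (SD, n = 3 each), with a log2 fold change of -0.94 (edgeR adjusted p = 7.15e-05) just under the fold limit, which it passed at -1.04 without shCdGAP replicate 3. DNMT3A was at -0.35 (edgeR adjusted p = 0.00241). CTCFL, a testis factor that can bind MAGEA promoters, had no read in any library.

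Among genes of proteins that bind MAGE proteins or are their targets, 29 were found, 24 were tested, 3 were called lower and none higher, and the median of the log2 fold changes was -0.12. That share of 12.5% is near the 12.8% of all tested genes. The count was 4 with upper-quartile factors or with library size alone. The 3 were TRIM31, an E3 ligase gene (249, 228 and 208 reads against 933, 850 and 655; log2 fold change -1.84, SE 0.09, edgeR adjusted p = 3.47e-07), FBP1 and NSMCE1. FBP1, a gluconeogenic enzyme reported as a target of MAGE-TRIM28 ligases, had few reads (9, 16 and 6 against 31, 32 and 31; log2 fold change -1.62, SE 0.29, edgeR adjusted p = 0.0013). FBP1 passed the filter on low counts only through the shCon libraries, where it is high. NSMCE1, the ligase subunit of the SMC5/6 complex, had 728, 1035 and 628 reads in shCdGAP and 1734, 1685 and 1419 in shCon, which gave a log2 fold change of -1.05 (edgeR adjusted p = 4.41e-05). Without shCdGAP replicate 1 or 3 it was -0.982 or -0.995, short of the fold limit. TRIM28, the ligase of MAGEA3, MAGEA6 and MAGEC2, was at 675 ± 44.7 CPM against 819 ± 11.1 (SD, n = 3 each; log2 fold change -0.28, edgeR adjusted p = 0.00111). PRKAA1, the AMPK subunit that these ligases target, was at -0.20 (edgeR adjusted p = 0.00289) and TRIM27, which the MAGEL2 protein binds, at -0.04 (edgeR adjusted p = 0.376). None of the last 3 passed the fold limit.

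Genes whose levels over the 6 libraries were most like those of a member were sought among 10243 genes outside the family whose average log2 CPM was 3 or more, by the Euclidean distance between centred log2 CPM profiles. For MAGEA1 they were LAD1 (distance 0.144), PTGS2 (0.226) and PARM1 (0.287), with log2 fold changes of 3.26, 3.11 and 3.40. LAD1 was at 66.2 CPM in shCdGAP and 6.89 in shCon. For MAGED2 they were ATL3 (0.0250), ACSL4 (0.0437) and GFPT2 (0.0604), with log2 fold changes of 0.75, 0.75 and 0.78. With 3 libraries a group, such a distance mostly measures the fold between the groups and is a description over 6 libraries. For MAGEC2, at 0 to 2 reads, no like genes are given.

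Because type I MAGE genes are normally germ-cell genes, germ-cell markers are given beside them. Of 9 markers, 2 were tested and 1 was called higher, beside 8.56% of all tested genes: DDX4, an RNA helicase of germ cells, had 84, 135 and 88 reads in shCdGAP and 19, 21 and 15 in shCon (log2 fold change 2.45, SE 0.21, edgeR adjusted p = 1.47e-05). PIWIL1, a piRNA-binding protein gene and the other one tested, stood at 0.36 (edgeR adjusted p = 0.0821). SYCP1, TNP1, PRM1 and PRM2 had 0 reads in every library, DAZL 1 or 2, SYCP3 1 to 5 and TEX101 0 or 1, so the defining meiotic and sperm markers were at or near 0 in both groups. The summed level of the 9 was 8.81 to 12.9 CPM in shCdGAP and 6.23 to 6.66 CPM in shCon.

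Markers of other cell types were looked at in the same way. Of 5 fibroblast-type genes, 4 were tested, and 3 were called higher and none lower, beside 8.56% called higher among all tested genes: COL1A1 (57.1 ± 1.86 against 18 ± 0.891 CPM, SD, n = 3 each), LUM and PDGFRB. LUM had 72, 91 and 52 reads in shCdGAP against 11, 9 and 6 in shCon, and PDGFRB 30, 52 and 39 against 4, 7 and 2. Both passed the filter on low counts only through shCdGAP, where they are high, so little is read from their calls. COL1A2 was at -0.04 (edgeR adjusted p = 0.356) and DCN had 0 to 5 reads, and the summed level was 334 to 343 CPM in shCdGAP and 301 to 307 CPM in shCon. The 4 leukocyte markers summed to 0.116 to 0.321 CPM in shCdGAP and 0.477 to 0.924 CPM in shCon, with CD3E at 0, PTPRC at 0 or 1 read and LYZ (4, 3 and 1 reads against 15, 27 and 26) called lower. LYZ passed the filter on low counts only through shCon, where it is high. The 3 endothelial markers summed to 2.44 to 6.06 CPM in shCdGAP and 5.69 to 5.84 CPM in shCon, nearly all of it PECAM1, which was not called (log2 fold change -0.57, edgeR adjusted p = 0.181), with VWF at 0 or 1 read. The part of the fibroblast-type genes and of DDX4 in the differences of the MAGE genes was not tested.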

How the data were processed

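RNA of 3 shCdGAP and 3 shCon samples of PC-3 cells was sequenced. The authors deposited 1 table per sample with raw read counts for each gene. Per the submitters' notes, reads were checked with FastQC 0.11.5, aligned to GRCh38 with STAR 2.5.1b and counted with featureCounts 1.4.6. The file headers instead give version 1.6.0, paired reads, a strand setting and the annotation of Ensembl release 77, whereas a single-read kit is named in the methods. Under the header's settings, reads with several alignments or in several genes are not counted. Totals were 33182796 to 43154039 reads per library.

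The fit was made with edgeR 4.0.16 in R 4.3.3 (filterByExpr, TMM factors from 0.987 to 1.01, robust quasi-likelihood F test, groups only) over 16439 genes, with Benjamini-Hochberg adjustment. A gene was called where its adjusted p was under 0.01 and its log2 fold change above 1 in size. RPKM used the length in the tables. The methods name 3 independent samples per group. The p-values measure the spread between these samples, which stem from 1 depleted line and 1 control. All pairs of libraries differed by more than sampling noise. A count of 0 was taken to allow up to 3 reads.

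The members and all gene lists were chosen with earlier results of these data known. Named genes are the 10 members, ARHGAP31, every tested other MAGE gene, the called genes of the other lists (at most the 6 largest per list), DNMT1, DNMT3A, DNMT3B, UHRF1, CTCFL, TRIM28, TRIM27, PRKAA1 and NSMCE1, and the cell type markers, some of which are not reported here. Others are marked where they appear. Unique windows were counted with Python 3.11.15 in GRCh38, and gene bodies aligned with edlib 1.3.9.post1. Promoter sequences are those of RefSeq (GRCh38.p14), with 15 entries for 8 members. Alternatives were DESeq2 1.42.0, scaling by upper quartiles or by library size, other filters, a wider p threshold, other prior counts, summed near copies, a replicate block, and each library left out. On simulated counts for this comparison (16192 genes, log2 change of 2), 186 of 199 changed genes were called and 0 of 15993 unchanged ones. Far fewer genes were changed there than the 2096 called in the data, and all by the same size. A call also needs the fold limit, which few unchanged genes would pass. So the 0 gives no rate of false calls for these data.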

Additional observations from a re-analysis of the deposited data

How the results depend on the processing

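Of 508 alternative values for the counts of calls and the named genes, 480 were rated as unchanged. For a count of calls this was a loose rule. With at least 10 reads in every library, 954 genes called higher in place of 1407 still rated as unchanged. So did 490 in place of 689 called lower, and 9 in place of 13 neighbours. For the members it meant the same direction and a shift smaller than the SD between libraries of a group. For the other named genes it meant the same direction and the same side of the thresholds, and their size was not judged. A value for MAGEA10 turned to 0.95 where the reads of MAGEA1 to MAGEA12 were summed, since that sum stands for the whole group, and DNMT1, which did not pass the test, ranged from -0.16 to 0.018 with each library left out, the latter without shCdGAP replicate 2. With at least 10 reads in every library, 1 other MAGE gene was called in place of 2 and 41 X chromosome genes in place of 70, and fewer genes were tested. With no filter on low counts, 6 other cancer-testis genes were called in place of 3. The count of calls in the list that holds the silencing machinery ranged from 1 to 2 with each library left out. Replicate numbers paired the libraries weakly if at all. Correlations of same-numbered deviations were 0.0598, 0.0784 and 0.0794, and those of differing number ran from -0.135 to 0.0606. With the replicate block, 1371 genes were called higher and 677 lower, in place of 1407 and 689, and CTAG2 was no longer called (edgeR adjusted p = 0.0165), which left 2 other cancer-testis genes. No other scaling moved the median of all genes by more than 0.03 on the log2 scale. Of 14 levels per length, 13 moved with unique windows in place of exon length, which is an alternative chosen after seeing the data. Low counts limit MAGEA4, MAGEB2 and MAGEC2, and near copies limit MAGEA3 and MAGEA6.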
